A study of Mus musculus with 12 samples.

Results

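Processed pseudogene transcripts are RNAs read from copies of spliced mRNAs that were written back into the genome. They were taken here as every transcript of the deposited liver tables whose gene is annotated as a processed pseudogene or a transcribed processed pseudogene and which the authors' comparison had enough reads to test, apart from Gm10319. Of 19834 tested transcripts in the comparison of HFD and CD livers, 723 were members, from 707 genes. Of 19918 tested transcripts in the comparison of db and misty livers, 724 were members, from 708 genes. The tables listed 7362 and 7393 transcripts of these annotations in all, so 9.82% of those listed were tested in the table of HFD and CD livers and 9.79% in the table of db and misty livers. Between them the tables held 858 tested Ensembl transcripts, 558 of which were tested in both.

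The study asked how obesity changes the RNA content of the liver, with 2 mouse models and, by the labels, 3 livers in each of 4 groups. HFD mice were wild-type animals on a high-fat diet with 54 kJ% fat, and CD mice were wild-type animals on a control diet with 11 kJ% fat (labelled NCD). The db mice carried the genotype labelled Leprdb, a loss of the leptin receptor that makes mice overeat, and were given NCD. The misty mice carried the genotype labelled Dock7m +/+ Leprdb, were also given NCD and are the lean controls of db mice according to the methods, whereas the series description counts them as obese. The labels give strain C57BL/6 and 36 weeks of age for all 4 groups, whereas the methods give another background strain, another age and another number of animals for db and misty mice. Total RNA was depleted of ribosomal RNA and sequenced from strand-specific libraries. The labels give a single library protocol for all 4 groups, whereas the methods place HFD and CD livers at another sequencing centre than db and misty livers, with another depletion and library kit, another instrument and another read length. The tables hold a single pooled FPKM per group (sequenced fragments scaled for transcript length and library size), so no spread between livers could be computed, no test was run, and every difference below describes pooled values.

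A processed pseudogene arises when the reverse transcriptase of a LINE-1 element copies an mRNA and inserts the copy at a new place, without introns and without the promoter of its parent. Genes that are strongly active in the germ line, such as those for ribosomal proteins, have left the most copies. A copy becomes RNA only where it lands beside a promoter or within another transcript, and young copies still match the parent so closely that short reads cannot always be assigned to one or the other. The parent is named here only where the symbol carries it, as in Rpl31-ps15.

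Sequences of the members show how far this problem reaches. GENCODE M21 transcripts (GRCm38) were found for 856 of the 858 members. Rpl38-ps2 and Rpl31-ps8 are printed because they were among the most abundant members and match their parents exactly. Rpl31-ps15 and Phf20-ps are printed because they differed more than 2-fold between HFD and CD livers. Gstm2-ps1 and Api5-ps are printed because they differed more than 2-fold between db and misty livers. Each line gives the 5′ end of the transcript, 5′ to 3′, whole for Rpl38-ps2 and as the first 240 bases for the others. Capitals mark bases that do not match the coding transcript of the gene in the symbol.
Rpl38-ps2: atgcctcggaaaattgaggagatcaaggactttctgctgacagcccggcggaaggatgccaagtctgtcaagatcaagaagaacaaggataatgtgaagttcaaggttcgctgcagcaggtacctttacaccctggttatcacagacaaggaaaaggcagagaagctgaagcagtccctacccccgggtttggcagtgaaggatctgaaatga
Rpl31-ps8: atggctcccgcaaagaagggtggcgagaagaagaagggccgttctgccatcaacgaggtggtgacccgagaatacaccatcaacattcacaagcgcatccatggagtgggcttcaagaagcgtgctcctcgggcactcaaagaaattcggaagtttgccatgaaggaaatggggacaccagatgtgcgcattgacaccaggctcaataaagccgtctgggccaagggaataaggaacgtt
Rpl31-ps15: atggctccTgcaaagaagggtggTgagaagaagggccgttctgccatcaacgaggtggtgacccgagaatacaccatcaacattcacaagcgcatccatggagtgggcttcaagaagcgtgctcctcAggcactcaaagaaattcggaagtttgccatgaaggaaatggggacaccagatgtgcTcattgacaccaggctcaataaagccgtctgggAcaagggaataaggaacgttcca
Phf20-ps: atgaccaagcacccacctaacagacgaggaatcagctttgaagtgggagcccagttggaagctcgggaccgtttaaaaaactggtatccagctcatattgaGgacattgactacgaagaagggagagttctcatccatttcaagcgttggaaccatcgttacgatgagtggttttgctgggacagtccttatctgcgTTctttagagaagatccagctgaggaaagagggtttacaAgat
Gstm2-ps1: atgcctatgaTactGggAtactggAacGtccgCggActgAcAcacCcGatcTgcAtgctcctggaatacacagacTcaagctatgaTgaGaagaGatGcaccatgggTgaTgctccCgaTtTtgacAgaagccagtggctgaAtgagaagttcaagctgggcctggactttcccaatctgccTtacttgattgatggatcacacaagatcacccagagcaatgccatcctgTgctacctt
Api5-ps: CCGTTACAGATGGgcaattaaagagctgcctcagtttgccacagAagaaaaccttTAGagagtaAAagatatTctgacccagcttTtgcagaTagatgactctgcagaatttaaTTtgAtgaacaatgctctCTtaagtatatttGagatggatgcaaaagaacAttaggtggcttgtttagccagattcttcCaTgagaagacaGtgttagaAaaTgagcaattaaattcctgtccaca

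These stretches lie at chr6:140746960-140747172, minus strand (Rpl38-ps2), chr15:90764417-90764656, minus strand (Rpl31-ps8), chr3:37734730-37734969, plus strand (Rpl31-ps15), chr7:14304780-14305019, plus strand (Phf20-ps), chr5:116633325-116633564, minus strand (Gstm2-ps1) and chr7:26919113-26919352, minus strand (Api5-ps). All 6 are annotated with a single exon. Rpl38-ps2 and Rpl31-ps8 had no unmatched base over 213 and 378 bases. Rpl31-ps15 had 14 unmatched bases in 375 and an identity to Rpl31 of 96.3% over the aligned bases. Phf20-ps had 86 in 2886 (97.1% identity), Gstm2-ps1 had 108 in 657 (86.1%) and Api5-ps had 96 in 577 (87.5%). Of the members with a parent in the symbol, 71 could be aligned to it in the table of HFD and CD livers, with a median identity of 98.0% and a range of 78.4% to 100%.

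Other members carry no parent in their symbol. Gm28883 and Gm12837 are printed because they were lower in the obese livers of both models, and Gm29920 because it was higher in both. In these 3 stretches capitals mark bases that lie in a run of at least 25 bases found unchanged in a coding transcript from elsewhere in the genome.
Gm28883: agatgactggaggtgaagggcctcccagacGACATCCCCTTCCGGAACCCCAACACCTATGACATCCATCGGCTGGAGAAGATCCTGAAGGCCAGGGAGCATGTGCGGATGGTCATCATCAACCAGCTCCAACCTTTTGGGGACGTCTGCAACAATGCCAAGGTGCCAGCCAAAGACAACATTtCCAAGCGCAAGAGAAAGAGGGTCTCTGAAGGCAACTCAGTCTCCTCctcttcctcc
Gm12837: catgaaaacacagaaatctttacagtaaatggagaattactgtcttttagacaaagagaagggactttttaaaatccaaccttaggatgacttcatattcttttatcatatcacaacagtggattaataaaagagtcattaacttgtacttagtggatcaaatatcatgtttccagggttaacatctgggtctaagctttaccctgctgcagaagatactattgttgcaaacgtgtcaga
Gm29920: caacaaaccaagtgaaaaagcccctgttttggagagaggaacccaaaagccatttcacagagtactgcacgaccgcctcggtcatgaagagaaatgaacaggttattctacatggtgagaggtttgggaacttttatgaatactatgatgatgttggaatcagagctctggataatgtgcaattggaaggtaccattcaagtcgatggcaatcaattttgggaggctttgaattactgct

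They lie at chr1:135869782-135870021, plus strand (Gm28883), chr4:115416215-115416454, minus strand (Gm12837) and chr7:26100077-26100316, minus strand (Gm29920). Gm28883 had 199 such bases among the 240 shown, and Gm12837 and Gm29920 had none there. Over the whole transcript, 315 of 369 bases of Gm28883 and 125 of 754 bases of Gm29920 lay in such runs, and none of the bases of Gm12837 did.

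The tested members were mostly low in level. The median FPKM was 0.707 in HFD livers and 0.762 in CD livers, and 0.690 in db livers and 0.731 in misty livers. At least 10 FPKM was reached by 54 members in HFD livers and 53 in CD livers, and by 62 in db livers and 57 in misty livers. The 10 most abundant members held 46.7% of the summed FPKM of all members in HFD livers and 40.9% in CD livers, 37.2% in db livers and 40.4% in misty livers. The summed FPKM was 3987 in HFD livers and 3612 in CD livers. Gm20426 and Rpl31-ps15 made up that difference, since without these 2 genes the sums were 3405 in HFD livers and 3415 in CD livers. The sums were 3695 in db livers and 3857 in misty livers. Tested members had a median length of 609 bases in the table of HFD and CD livers, against 546 bases for those listed but not tested, and a median GC content of 48.7% against 47.4%.

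**Figure D1:**
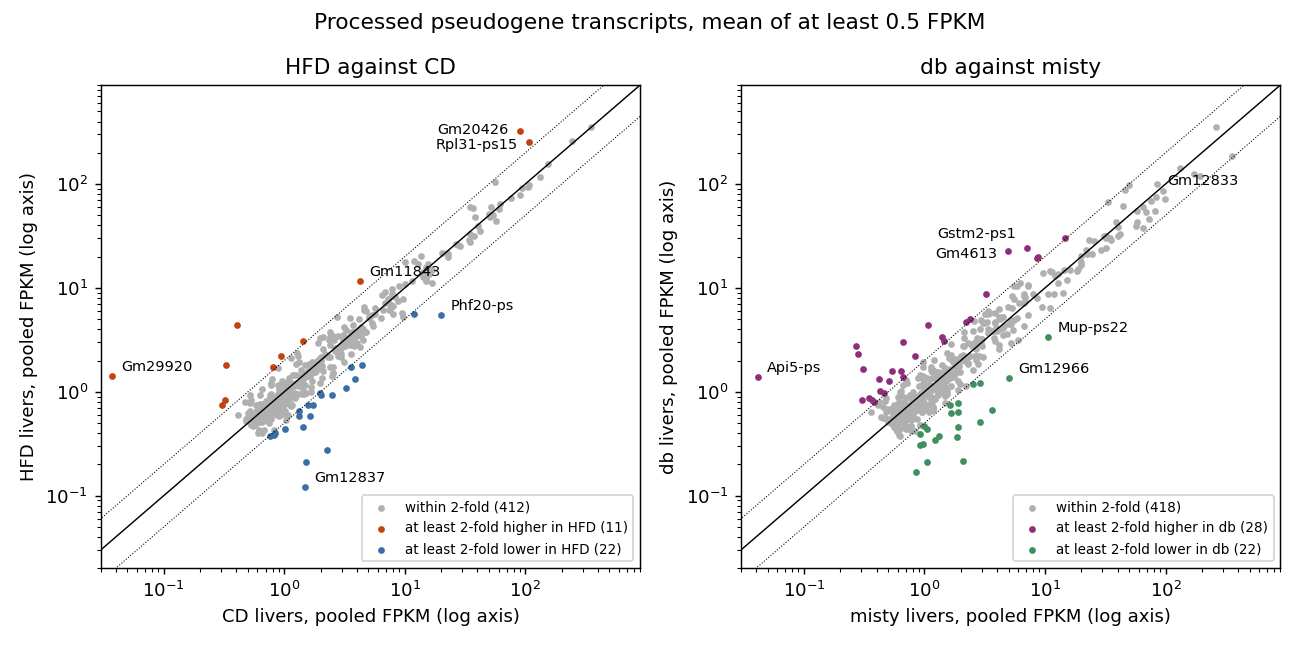
Pooled FPKM of each processed pseudogene transcript with a mean of at least 0.5 FPKM, in the obese group (vertical, log axis) and its control group (horizontal, log axis), for HFD against CD (left) and db against misty (right). Each point is a transcript, the solid line marks equal values and the dotted lines a 2-fold difference. Most points lie between the dotted lines, and Gm20426 and Rpl31-ps15 stand above them at the top of the HFD panel.

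Most of the abundant members whose symbol shows a parent belong to the ribosomal protein genes, which encode the protein parts of the ribosome. Rps15-ps2 had 78.8 FPKM in HFD livers and 89.7 FPKM in CD livers, and 55.0 FPKM in db livers and 82.3 FPKM in misty livers. Rpl19-ps11 had 97.4 FPKM in HFD livers and 107 FPKM in CD livers, and 71.2 FPKM in db livers and 99.1 FPKM in misty livers. Rpl31-ps8 had 94.6 FPKM in HFD livers and 106 FPKM in CD livers, and 99.4 FPKM in db livers and 84.8 FPKM in misty livers. None of these 3 moved by 2-fold in either model. Rpl38-ps2 had 72.7 FPKM in HFD livers and 75.8 FPKM in CD livers, and 143 FPKM in db livers and 131 FPKM in misty livers. Rps26-ps1, Rpl14-ps1, Rps24-ps3 and Rps25-ps1 lay between 21.2 and 76.4 FPKM in all 4 groups, with log2 ratios between -0.34 and -0.08.

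Of abundant members without a parent in the symbol, Gm12896 had 262 FPKM in HFD livers and 244 FPKM in CD livers, and 118 FPKM in db livers and 193 FPKM in misty livers. Gm9794 had 154 FPKM in HFD livers and 154 FPKM in CD livers, and 125 FPKM in db livers and 171 FPKM in misty livers. Gm14303 and Gm14586 lay between 75.3 and 133 FPKM in the 4 groups, with log2 ratios between -0.19 and -0.05. Gm14539 had 57.1 FPKM in HFD livers and 60.6 FPKM in CD livers, but 98.2 FPKM in db livers and 50.1 FPKM in misty livers, a log2 ratio of 0.97 just short of the 2-fold line.

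Some abundant members were present in 1 table and near 0 in the other, whose values were normalized separately. Tpt1-ps3, a copy of the gene for translationally controlled tumor protein, had 355 FPKM in HFD livers and 351 FPKM in CD livers, but was not tested in the other model, where it was listed at 0.0414 FPKM in db livers and 0.0459 FPKM in misty livers. Gm13394 was listed at 0 in HFD and CD livers and had 355 FPKM in db livers and 264 FPKM in misty livers. Gm12833 had 0.376 FPKM in HFD livers and 0.0713 FPKM in CD livers, but 186 FPKM in db livers and 353 FPKM in misty livers. Gm20426 had 326 FPKM in HFD livers and 89.9 FPKM in CD livers, but 1.47 FPKM in db livers and 1.22 FPKM in misty livers. Rpsa-ps10 was listed at 0 in HFD and CD livers, against 46.4 FPKM in db livers and 73.0 FPKM in misty livers. Tpt1-ps3 matches Tpt1 at every base, and no coding transcript of Tpt1 was tested beside it. Rpsa-ps10 has an identity of 99.3% to Rpsa. Of 67 transcripts with a mean of at least 10 FPKM in either table, 44 had means within 2-fold of each other and 19 had means at least 10-fold apart, 8 of them higher in the table of HFD and CD livers and 11 higher in the table of db and misty livers. The tables differ in mouse model and, by the methods, in sequencing centre, library kit and read length, which cannot be told apart in these levels. How reads were divided between close copies such as Tpt1-ps3 and Rpsa-ps10 and their parents may differ too, and was not tested.

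Exact sequence sharing with coding genes was common. A window of 100 bases found unchanged in a coding transcript from another place occurred in 424 of the 854 members of at least 100 bases, at least 75% of the windows were shared in 54, and all of them in 25. Reads from such a window fit both places. Among members with a mean of at least 0.5 FPKM, the median level was 1.04 FPKM for those with no shared window and 7.16 FPKM for those with at least 75% shared in the table of HFD and CD livers, and 0.924 and 5.82 FPKM in the table of db and misty livers. Across these members the log2 level and the shared share had a Spearman's rho of 0.32 (n = 443, Pearson's r = 0.39) in the table of HFD and CD livers and 0.41 (n = 468, Pearson's r = 0.44) in the table of db and misty livers. The points share a library pool and, for families of copies, a parent, so these coefficients are descriptions.

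The question of how obesity moved these transcripts was addressed by the ratio of the pooled FPKM of the obese livers to that of their controls, for members with a mean of at least 0.5 FPKM over both groups and a value above 0 in each. HFD livers had 11 of 445 members at least 2-fold higher than CD livers (2.47%, against 6.33% of all tested transcripts) and 22 at least 2-fold lower (4.94%, against 3.57%). The median log2 ratio of HFD over CD was -0.07, with an interquartile range of -0.29 to 0.13, beside a median of -0.04 over all tested transcripts. In db livers 28 of 468 members were at least 2-fold higher than in misty livers (5.98%, against 7.38% of all tested transcripts) and 22 at least 2-fold lower (4.70%, against 5.94%). The median log2 ratio of db over misty was -0.07, with an interquartile range of -0.35 to 0.28, beside -0.01 over all tested transcripts. That median was not stable in direction, since it was 0.015 among members with a mean of at least 1 FPKM and 0.034 both without members on the opposite strand of a coding gene and without those whose interval also holds a coding transcript. The members' shares lay near those of all transcripts, apart from fewer higher members in HFD livers, and the pooled values allow no test of that difference. At the 2-fold line, Gm5566 was the nearest higher member in HFD livers (log2 ratio 1.09) and Gm18776 the nearest below the line (0.95), and Gm16209 (-1.01) and Gm5100 (-0.94) stood on either side of the lower line. In db livers Gm18427 (1.02) and Gm21960 (0.99) stood on either side of the upper line, and Rpl7a-ps10 (-1.09) and Gm13784 (-0.99) on either side of the lower one.

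Other classes give the scale of these counts. Of 9610 protein-coding transcripts, 5.54% were higher and 2.26% lower in HFD livers than in CD livers. Of 224 lincRNA transcripts, 7.14% were higher and 8.48% lower in HFD livers than in CD livers. In db livers 6.79% of 9264 protein-coding transcripts were higher and 4.48% lower than in misty livers.

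The members at least 2-fold higher in HFD livers ranged from hardly detected copies to the most abundant. Gm29920 had 1.42 FPKM in HFD livers and 0.0373 FPKM in CD livers, a log2 ratio of 5.25. 4930519F09Rik, which overlaps an exon of the T cell gene Themis on the opposite strand, had 4.44 FPKM in HFD livers and 0.407 FPKM in CD livers (log2 ratio 3.45). The summed FPKM of tested lymphocyte markers was 3.08 in HFD livers and 1.66 in CD livers, with 2 of 4 markers past 2-fold higher, and their part in this ratio was not tested. Gm12322, in an intron of Rabep1 on the opposite strand, had 1.83 FPKM in HFD livers and 0.326 FPKM in CD livers (log2 ratio 2.49). Gm29920, 4930519F09Rik and Gm12322 were at or below 0.407 FPKM in CD livers, so their folds rest on small denominators. Gm20426, a transcribed processed pseudogene, had a log2 ratio of 1.86. Its abundant transcript is a spliced one that runs past the vomeronasal receptor gene Vmn1r53 on the same strand. Gm11843 had 11.6 FPKM in HFD livers and 4.27 FPKM in CD livers (log2 ratio 1.44), and in the other model 0.501 FPKM in db livers and 0.167 FPKM in misty livers.

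Rpl31-ps15 had 256 FPKM in HFD livers and 107 FPKM in CD livers, a log2 ratio of 1.25. The ribosomal protein L31 copy Rpl31-ps8, which matches the parent exactly, had a ratio of -0.16 in the same livers, and Rpl31-ps20 had 0.543 FPKM in HFD livers and 0.443 FPKM in CD livers. In the other model Rpl31-ps15 had 6.51 FPKM in db livers and 9.48 FPKM in misty livers (log2 ratio -0.54), so neither its level nor its direction was shared. Gm11975, Gm8974 and Gm12250 had log2 ratios of HFD over CD of 1.39, 1.29 and 1.23 at means between 0.524 and 1.58 FPKM.

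The lowest ratio in HFD livers was that of Gm12837, with 0.121 FPKM in HFD livers and 1.49 FPKM in CD livers (log2 ratio -3.63). Gm6195, in an intron of the kinase gene Sgk3 on the opposite strand, had 0.275 FPKM in HFD livers and 2.27 FPKM in CD livers (-3.05). Gm15779, in an intron of Dennd5b on the opposite strand, had 0.211 FPKM in HFD livers and 1.53 FPKM in CD livers (-2.86). In db and misty livers Gm6195 and Gm15779 had log2 ratios of -0.31 and -0.35. Phf20-ps, a copy of a gene for a reader of methylated histones, was the most abundant of the lower members, with 5.46 FPKM in HFD livers and 20.1 FPKM in CD livers (-1.88). Its parent Phf20 had 1.22 FPKM in HFD livers and 1.03 FPKM in CD livers (log2 ratio 0.24), and Phf20-ps was not tested in db and misty livers. Gm17954, Gm44419 and Gm5297 had log2 ratios of -1.64, -1.21 and -1.18 in HFD livers, and -0.32, 0.87 and 0.51 in db livers.

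In db livers the largest ratio belonged to Api5-ps, a copy of the gene for an inhibitor of apoptosis, with 1.38 FPKM in db livers and 0.0415 FPKM in misty livers (log2 ratio 5.05). In the other model it had 0.490 FPKM in HFD livers and was listed at 0 in CD livers. Gm7846 had 2.76 FPKM in db livers and 0.271 FPKM in misty livers (3.35), but 2.30 FPKM in HFD livers and 2.18 FPKM in CD livers. Gm17967 had 2.30 FPKM in db livers and 0.279 FPKM in misty livers (3.05), and 0.588 FPKM in HFD livers and 0.217 FPKM in CD livers (1.44), where its mean was below 0.5 FPKM. Gm6415, in an intron of the nucleoside transporter gene Slc28a1 on the opposite strand, had 1.65 FPKM in db livers and 0.311 FPKM in misty livers (2.40).

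Gstm2-ps1, a copy of a glutathione S-transferase gene whose product joins glutathione to foreign compounds, had 24.5 FPKM in db livers and 7.03 FPKM in misty livers (log2 ratio 1.80). It had 17.9 FPKM in HFD livers and 10.1 FPKM in CD livers (0.82). It is thus an abundant member that was higher in the obese livers of both models, past 2-fold in the db model. Gm4613 had 22.6 FPKM in db livers and 4.94 FPKM in misty livers (2.19), and was listed at 0 in HFD and CD livers. Gm18776 had 4.36 FPKM in db livers and 1.07 FPKM in misty livers (2.03), and 5.28 FPKM in HFD livers and 2.73 FPKM in CD livers (0.95). Gm11598 had 3.01 FPKM in db livers and 0.658 FPKM in misty livers (2.19), and a ratio of 0.72 in HFD livers. Gm5873 and Gm7389 had log2 ratios of 1.65 and 1.54 in db livers.

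Among the lower members in db livers, Gm28883 had 0.215 FPKM in db livers and 2.10 FPKM in misty livers (log2 ratio -3.29). Rpl27a-ps1, a copy of a ribosomal protein gene, had 0.169 FPKM in db livers and 0.846 FPKM in misty livers (-2.32), and 0.189 FPKM in HFD livers and 0.546 FPKM in CD livers (-1.53), below the mean of 0.5 FPKM in that table. Gm38051 had 0.211 FPKM in db livers and 1.05 FPKM in misty livers (-2.32). Gm12966 had 1.36 FPKM in db livers and 5.04 FPKM in misty livers (-1.89), and a ratio of -0.34 in HFD livers. Gm11224, Gm2986 and RP23-64O4.3 had log2 ratios of -2.03, -1.84 and -1.81. Mup-ps22, whose symbol places it with the major urinary proteins that the male liver secretes as pheromone carriers, had 3.37 FPKM in db livers and 10.7 FPKM in misty livers (-1.66). In the other model it had 58.9 FPKM in HFD livers and 36.8 FPKM in CD livers (0.68).

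The 2 comparisons share no samples, so their ratios could be set side by side for the 340 members with a mean of at least 0.5 FPKM in both. The sign was the same in 217 (63.8%), beside 62.5% of 5951 protein-coding transcripts. The ratios had a Pearson's r of 0.34 and a Spearman's rho of 0.32 across the members, which may share reads with one another, and of 0.38 and 0.34 across the protein-coding transcripts. Of the 340 members, 7 were at least 2-fold lower and 1 at least 2-fold higher in the obese livers of both models, and 1 went opposite ways. Of the 5951 protein-coding transcripts, 52 were at least 2-fold lower and 88 at least 2-fold higher in both. Another 15 were higher in HFD and lower in db livers, and 10 the reverse. The pooled values allow no test of these differences.

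**Figure D2:**
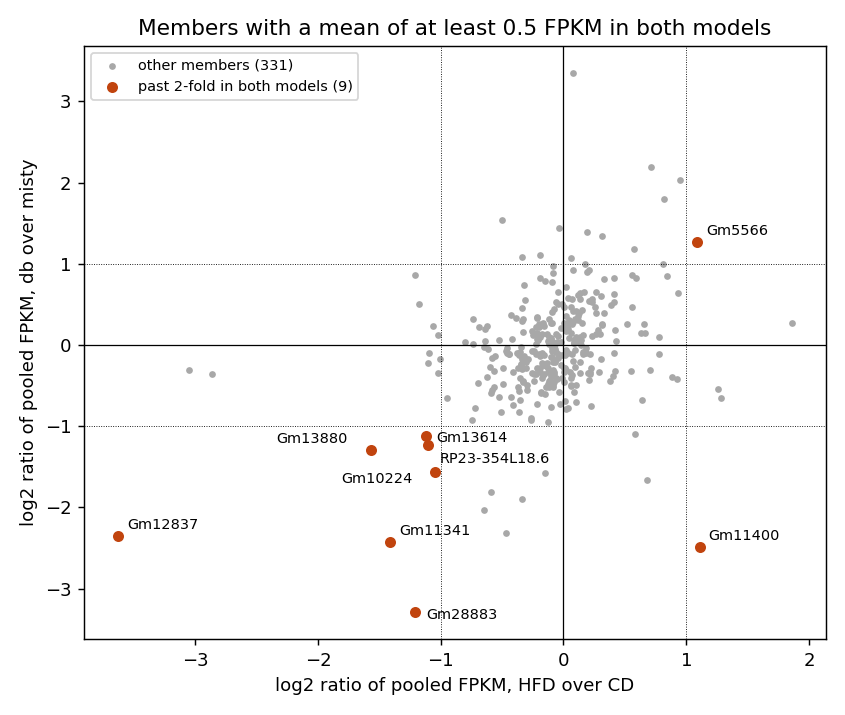
The log2 ratio of pooled FPKM of HFD over CD (horizontal) and db over misty (vertical) for the 340 members with a mean of at least 0.5 FPKM in both models. Each point is a transcript, the dotted lines mark 2-fold, and the 9 coloured points are past 2-fold in both models, 7 of them at the lower left.

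Gm12837 was lower in both, with 0.121 FPKM in HFD livers and 1.49 FPKM in CD livers, and 0.367 FPKM in db livers and 1.87 FPKM in misty livers. It lies in an intron of Cyp4a12b, on the opposite strand. Cyp4a12b, which encodes a cytochrome P450 that hydroxylates fatty acids, had 2.24 FPKM in HFD livers and 29.6 FPKM in CD livers (log2 ratio -3.72), and 8.41 FPKM in db livers and 20.4 FPKM in misty livers (-1.28). Whether reads of the host gene entered the value of Gm12837 was not tested.

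Gm28883 had 0.750 FPKM in HFD livers and 1.73 FPKM in CD livers (log2 ratio -1.21), beside the ratio of -3.29 in db livers given above. The coding gene Lad1, which encodes a protein of the basement membrane, lies 36.4 kb away and had 0.678 FPKM in HFD livers and 1.45 FPKM in CD livers (-1.10), and 0.362 FPKM in db livers and 1.01 FPKM in misty livers (-1.48). Lad1 was named because it was past 2-fold in the direction of the copy, so this likeness follows from that choice. As 315 of the 369 bases of Gm28883 lie in runs shared with coding transcripts from elsewhere, its value may hold reads of another gene. This was not tested.

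Gm11341 had 0.937 FPKM in HFD livers and 2.50 FPKM in CD livers (-1.41), and 0.668 FPKM in db livers and 3.60 FPKM in misty livers (-2.43). Gm13880 had 1.09 FPKM in HFD livers and 3.24 FPKM in CD livers (-1.57), and 0.772 FPKM in db livers and 1.90 FPKM in misty livers (-1.30). Gm10224 had 1.75 FPKM in HFD livers and 3.60 FPKM in CD livers (-1.04), and 0.639 FPKM in db livers and 1.89 FPKM in misty livers (-1.56). All 3 lie outside coding genes and share 0%, 2.40% and 6.40% of their windows with coding transcripts, and each was between 1.89 and 3.60 FPKM in both control groups. Gm13614, which overlaps an exon of the bile salt export pump gene Abcb11 on the opposite strand, had log2 ratios of -1.12 in HFD livers and -1.13 in db livers. In the db model the most abundant tested coding transcript of Abcb11 had a log2 ratio of 0.28. That transcript was below 0.5 FPKM or no nearer to Gm13614 than 50.2 kb, where the nearest coding gene at that level, Dhrs9, lies. Its ratio may therefore not stand for the whole host gene. RP23-354L18.6, a transcribed processed pseudogene, had ratios of -1.10 in HFD livers and -1.23 in db livers.

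Gm5566 was the member past 2-fold higher in both, with 3.05 FPKM in HFD livers and 1.44 FPKM in CD livers (1.09), and 3.39 FPKM in db livers and 1.41 FPKM in misty livers (1.27). Gm11400, in an intron of the centrosome gene Sfi1 on the same strand, went opposite ways, with 1.73 FPKM in HFD livers and 0.802 FPKM in CD livers (1.11), and 0.516 FPKM in db livers and 2.90 FPKM in misty livers (-2.49). A fold could not be formed in both models for Gm29920, which had 7.31 FPKM in db livers and was listed at 0 in misty livers, or for 4930519F09Rik, which had 2.08 FPKM in db livers and was listed at 0 in misty livers. A listed 0 can be a failed estimate in these tables, so no bound on the fold is given. Gm11478, Gm13413, Gm5687 and RP23-355I5.2 were listed at 0 in db livers, against 0.460, 0.454, 0.215 and 0.215 FPKM in misty livers.

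**Figure D3:**
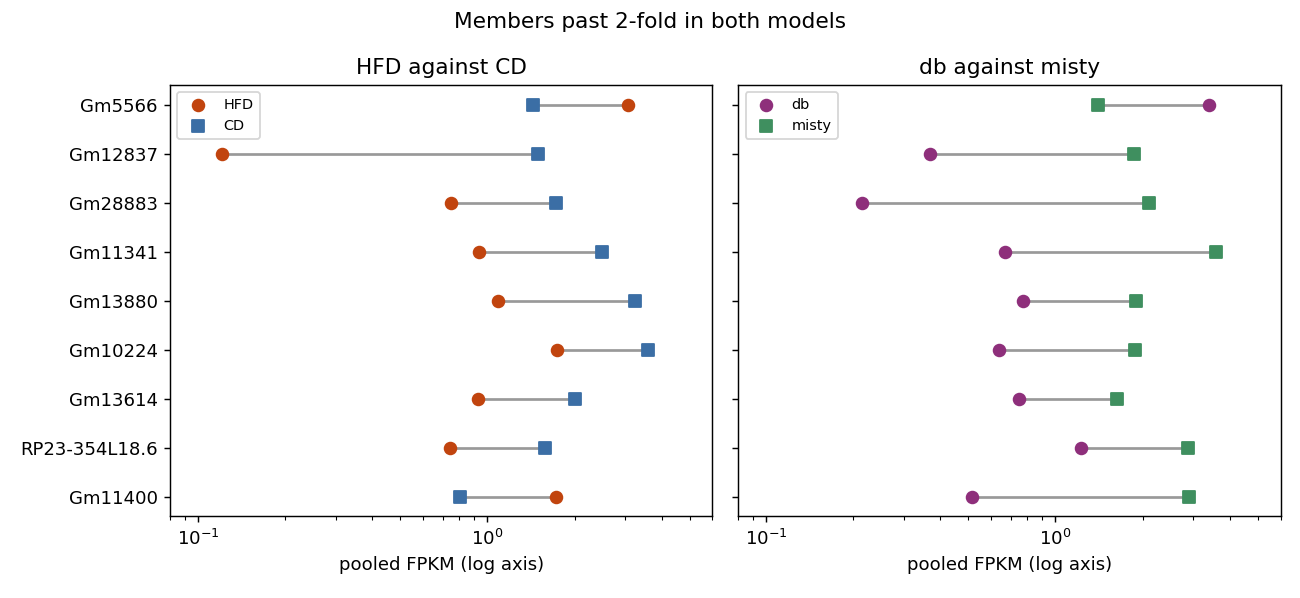
Pooled FPKM (horizontal, log axis) of the 9 members past 2-fold in both models, in HFD livers (circles) and CD livers (squares) on the left, and in db livers (circles) and misty livers (squares) on the right. Each line joins the pair of groups of a model, and Gm11400 is the member whose circle changes side.

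The share of listed transcripts that were tested differed with their position on the genome. Of the listed transcripts that overlap a protein-coding gene on the opposite strand, 30.1% were tested in the table of HFD and CD livers (310 of 1031) and 28.6% in the table of db and misty livers (297 of 1037). Of those outside coding genes 6.87% (390 of 5676) and 7.04% (401 of 5697) were tested, and of those on the same strand as the coding gene they overlap 3.51% (23 of 655) and 3.95% (26 of 659). Most opposite-strand members lay in introns, 282 of 310 in the table of HFD and CD livers and 267 of 297 in the table of db and misty livers. The libraries kept the strand of the RNA, but whether the quantification used it is not given in the sources used here. Without strand, intron reads of the host would count for such a copy, and this was not tested.

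**Figure D4:**
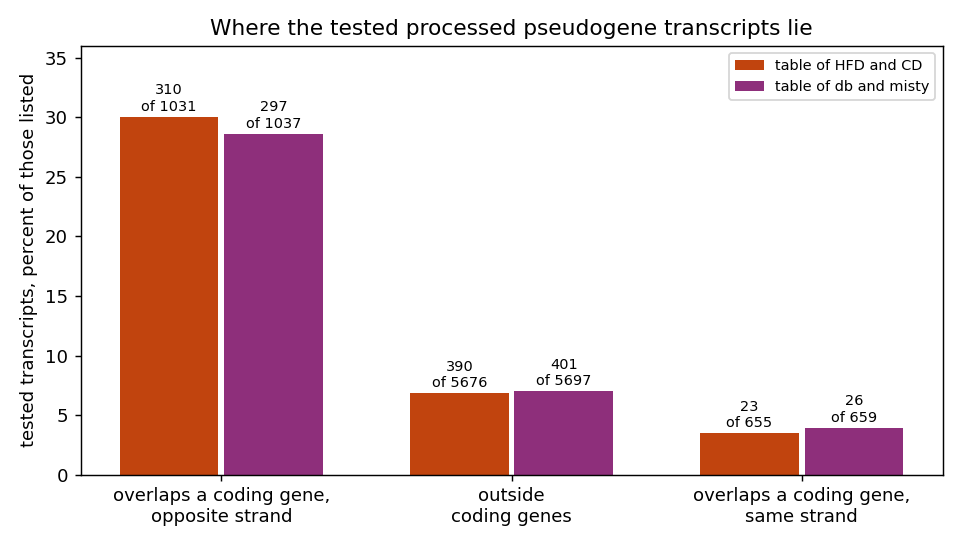
Share of listed processed pseudogene transcripts that were tested (vertical, percent), by position relative to protein-coding genes of GENCODE M21, in the table of HFD and CD livers (left bar of each pair) and the table of db and misty livers (right bar). Numbers above the bars give tested of listed transcripts, and the bars for opposite-strand overlap, at 30.1% and 28.6%, are the highest.

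Opposite-strand members and their hosts showed a loose relation. Across the 81 such members with a mean of at least 0.5 FPKM and a tested host transcript in the table of HFD and CD livers, the log2 ratios of member and host had a Spearman's rho of 0.37 and a Pearson's r of 0.21. In the table of db and misty livers the values were 0.36 and 0.48 over 86 members. Members inside a gene share its locus, and some share a host, so the points are not independent. Gm17967 lies in an intron of 9130409I23Rik on the opposite strand and had a log2 ratio of 3.05 beside 2.93 for that gene, which had 21.7 FPKM in db livers and 2.84 FPKM in misty livers. Gm15779 went without its host, since Dennd5b had a ratio of -0.29 in HFD livers. Opposite-strand members had a median log2 ratio of -0.07 in HFD livers and -0.15 in db livers, and members outside coding genes had -0.08 and 0.01.

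Most members past 2-fold had no coding gene past 2-fold near them. A coding gene at least 2-fold higher in HFD livers lay within 100 kb of 4 of the 11 members that were higher there, and of 25 of the 412 within 2-fold. A coding gene at least 2-fold lower lay within 100 kb of 3 of the 22 that were lower, and of 4 of the 412. In db livers such a gene lay near 6 of the 28 higher members and 34 of the 418 within 2-fold, and near 5 of the 22 lower members, 2 of them transcripts of RP23-354L18.6, and 17 of the 418. Neighbours past 2-fold in the opposite direction also occurred. A coding gene lower in HFD livers lay near 2 of the 11 higher members, and one higher in HFD livers near 1 of the 22 lower members. In db livers the opposite direction was found near 2 of the 28 higher and 2 of the 22 lower members. Neighbours can hold a shared locus or shared reads, and the counts are a description.

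Some of the neighbours in the same direction lay in the cytochrome P450 cluster on chromosome 7, whose Cyp2b and Cyp2a enzymes oxidize drugs and steroids. Gm29920 lies 3.4 kb from Cyp2b13, which had 6.19 FPKM in HFD livers and 0.0628 FPKM in CD livers, and 73.1 kb from Cyp2b9, which had 103 FPKM in HFD livers and 8.85 FPKM in CD livers (log2 ratio 3.55). In the db model Cyp2b9 had 223 FPKM in db livers and 0.104 FPKM in misty livers. Gm4613 lies 68.7 kb from Cyp2b10, which had 17.2 FPKM in db livers and 0.112 FPKM in misty livers. Api5-ps lies 12.7 kb from Cyp2a22, with 13.5 FPKM in db livers and 5.77 FPKM in misty livers (1.23), and 75.2 kb from Cyp2a5, with 252 FPKM in db livers and 10.9 FPKM in misty livers (4.53). All 3 copies were higher in obese livers in the models given here. The 5 enzymes were named because they were past 2-fold in the direction of the copy near them, so their shared direction follows from that choice. Gm12837 and Gm12833 mark a second P450 place, on chromosome 4, with Cyp4a14 lower near both. Cyp4a14 had 63.9 FPKM in HFD livers and 252 FPKM in CD livers (-1.98), and 9.43 FPKM in db livers and 27.8 FPKM in misty livers (-1.56). Gm12833, 4924 bases from Cyp4a14, had a log2 ratio of -0.93 in db livers, but of 2.40 in HFD livers, where it was below 0.5 FPKM in both groups and Cyp4a14 was lower.

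Members with much shared sequence were seldom past 2-fold. In the table of HFD and CD livers, none of the 130 members with at least 25% of their windows shared was past 2-fold, against 8 higher and 13 lower of the 185 members with no shared window. In the table of db and misty livers, 6 higher and 1 lower of 144 were past 2-fold, against 12 higher and 13 lower of 182. Across all members the relation was weak. The absolute log2 ratio and the shared share had a Spearman's rho of -0.10 (n = 443, Pearson's r = -0.15) in the table of HFD and CD livers and -0.07 (n = 466, Pearson's r = -0.09) in the table of db and misty livers. Members with much shared sequence were also the more abundant. The absolute log2 ratio and the log2 level had a Spearman's rho of -0.04 (n = 445, Pearson's r = -0.04) in the table of HFD and CD livers. In the table of db and misty livers the rho was 0.01 (n = 468, Pearson's r = -0.03). The part of level in the counts past 2-fold was not tested.

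**Figure D5:**
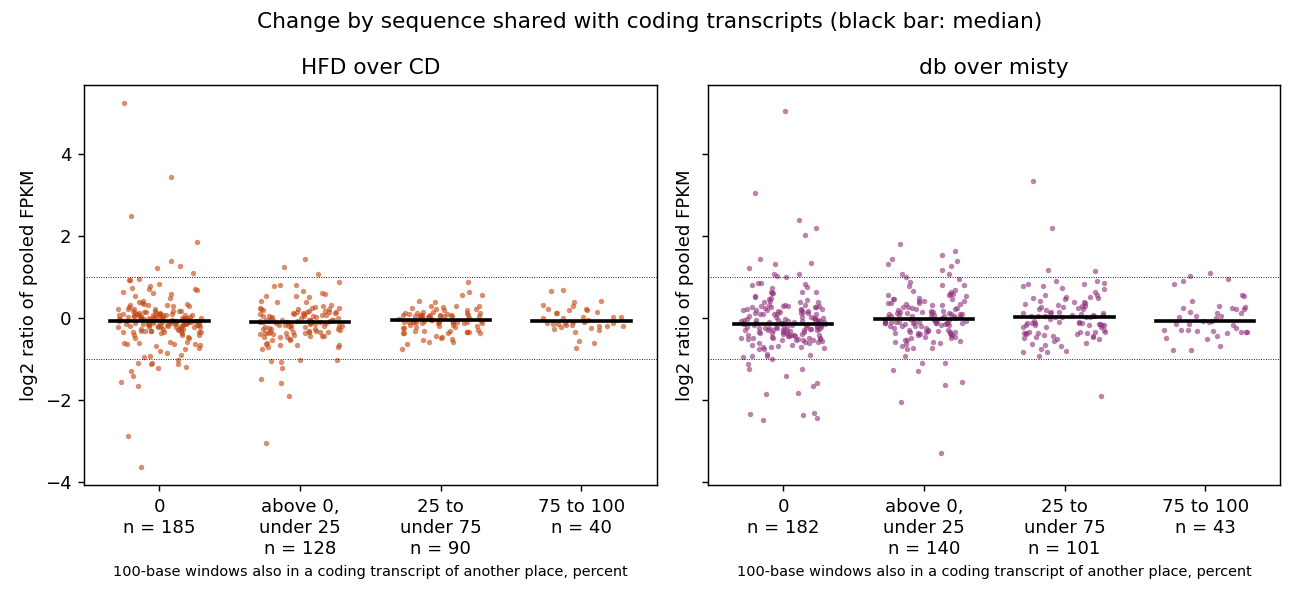
The log2 ratio of pooled FPKM (vertical) of members with a mean of at least 0.5 FPKM, by the share of their 100-base windows also found in a coding transcript of another place (horizontal, percent), for HFD over CD (left) and db over misty (right). Points are transcripts, black bars medians and dotted lines 2-fold. In the HFD panel no point with at least 25% shared lies past a dotted line.

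Copies of ribosomal protein genes formed the largest of the named families with a parent in the symbol. Of 21 such members, 1 was at least 2-fold higher and none lower in HFD livers, with a median log2 ratio of -0.10. The higher one was Rpl31-ps15, and the other 20 lay within 2-fold. Over the 47 tested coding Rpl and Rps genes the median was -0.14, with none higher and 1 lower. In db livers none of 28 copies was higher and 2 were lower, with a median of -0.14, and over 53 coding Rpl and Rps genes none was higher and 4 were lower, with a median of -0.22. The 2 lower copies were Rpl27a-ps1 and Rpl7a-ps10, a pair with 0% and 9.16% of their windows shared.

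Families were set by the opening letters of the parent symbol, and the smaller ones held 1 to 3 members each. The 3 copies of translation factor genes had a median log2 ratio of 0.20 in HFD livers and -0.28 in db livers. The copies placed by these letters with chromatin and RNA-binding protein genes had medians of -0.01 (n = 2) in HFD livers and 0.36 (n = 3) in db livers. These medians do not cover every copy of a chromatin gene. Phf20-ps, with a log2 ratio of -1.88 in HFD livers, counted among the other parents. Folding factors were represented by Dnajc19-ps, with ratios of 0.02 in HFD livers and 0.71 in db livers, and by Hspe1-ps5, with -0.06 in db livers. The iron and redox group, as set by these letters, was Gstm2-ps1 alone. No symbol of a member with a mean of at least 0.5 FPKM pointed to a glycolytic enzyme, a protein of the respiratory chain or of mitochondrial translocation, an actin or tubulin, or a ubiquitin or proteasome gene. Mitochondrial and cytoskeletal proteins of other kinds stood among the 28 and 33 other parents. Mpc1-ps, a copy of the gene for a mitochondrial pyruvate carrier, had 60.2 FPKM in HFD livers and 52.0 FPKM in CD livers, and 87.6 FPKM in db livers and 46.3 FPKM in misty livers (log2 ratios 0.21 and 0.92). Mrpl23-ps1, a copy of a mitochondrial ribosomal protein gene, had log2 ratios of 0.41 in HFD livers and 0.83 in db livers. Krt8-ps, a copy of the keratin 8 gene, had 7.13 FPKM in db livers and 6.13 FPKM in misty livers, and its log2 ratio of 0.22 stood beside 0.22 for Krt8. None of the 3 was past 2-fold where it was tested, and Krt8-ps was tested only in db and misty livers.

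A parent shows in the symbol of 85 members in the table of HFD and CD livers and 91 in the table of db and misty livers, and a coding transcript of it was tested for 40 and 48. Where both had a ratio and the copy a mean of at least 0.5 FPKM, copy and parent had the same sign in 17 of 28 in HFD livers and 27 of 40 in db livers, and ratios within 0.25 on the log2 scale in 14 and 15. Over all tested transcripts the interquartile range of the log2 ratio was -0.26 to 0.24 in HFD livers and -0.33 to 0.35 in db livers. Like counts for unrelated pairs were not computed, so these counts do not show whether copies follow their parents. The copy's FPKM was above that of the most abundant tested transcript of its parent in 13 of the 28 and 19 of the 40.

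Rps15-ps2 and its parent had like ratios in HFD livers and less alike ones in db livers. Rps15 had 314 FPKM in HFD livers and 353 FPKM in CD livers, a log2 ratio of -0.17 beside -0.19 for the copy. In db livers Rps15 had a ratio of -0.22 beside -0.58 for the copy. Rps26, Rpl14 and Rps25 were close to their copies in HFD livers, with ratios of -0.10, -0.12 and -0.19 beside -0.10, -0.09 and -0.17 for Rps26-ps1, Rpl14-ps1 and Rps25-ps1. In db livers they had -0.26, 0.13 and -0.09 beside -0.34, -0.15 and -0.22 for the same copies, so Rpl14 and Rpl14-ps1 differed in sign. Rpl38, which Rpl38-ps2 matches at every base, had 59.6 FPKM in HFD livers and 57.7 FPKM in CD livers, below its copy. Rps24 had only 1.25 FPKM in HFD livers and 1.28 FPKM in CD livers in its tested transcript, against 32.9 and 34.9 FPKM for Rps24-ps3. For copies this close, how reads were divided between parent and copy is uncertain.

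Markers of some liver cell types also differed between groups. In bulk RNA, fewer cells of a type and less RNA per cell cannot be told apart. Sums were taken over tested transcripts of the marker genes, and counts past 2-fold over the most abundant coding transcript of each. A sum can therefore hold transcripts that the counts leave out. The summed FPKM of tested macrophage markers was 103 in HFD livers and 45.7 in CD livers, with 5 of 6 markers past 2-fold higher, and 26.6 in db livers and 26.9 in misty livers, with none of 5. Lyz2 alone had 62.6 FPKM in HFD livers and 24.7 FPKM in CD livers. Csf1r and Marco had 0.00222 and 0.0286 FPKM in CD livers, so their folds rest on small denominators. Cd68 was just past the line (log2 ratio 1.01), and Clec4f had -0.15. The sum for tested hepatocyte markers was 5687 in HFD livers and 8511 in CD livers, and 1471 in db livers and 4118 in misty livers. Most of both falls was Apoa1, with 1847 FPKM in HFD livers and 3659 FPKM in CD livers, and 1244 and 3623 FPKM in db and misty livers. The other tested hepatocyte markers had log2 ratios from -0.44 to -0.14 in HFD livers and from -0.76 to 2.25 in db livers. None of the 5 tested hepatocyte markers was past 2-fold in HFD livers, and of 6 in db livers Apoa1 was lower and Ttr higher. The most abundant tested Ttr transcript had only 3.15 FPKM in db livers and 0.664 FPKM in misty livers. In HFD and CD livers it had 2767 and 3053 FPKM, so the db ratio may not stand for most Ttr RNA. The hepatocyte markers Alb, Apob and Tf were among those not tested in either table. The sum of cholangiocyte markers was 20.8 in HFD livers and 8.17 in CD livers, with 2 of 4 past 2-fold higher. Spp1 alone had 14.5 FPKM in HFD livers and 3.18 FPKM in CD livers. Epcam had a log2 ratio of 1.01, Krt19 0.73 and Sox9 -0.07. In db livers the sum was 7.72, against 8.72 in misty livers, with 1 of 4 past 2-fold lower. That was Sox9 (-1.78), beside 0.75 for Spp1, 0.19 for Epcam and -0.25 for Krt19, so these markers did not move together. A single lymphocyte marker was tested in the db model. None of the 4 tested endothelial markers was past 2-fold in either model. The same held for the 3 stellate markers tested in HFD livers and the 4 tested in db livers. Of 3 blood markers none was past 2-fold in HFD livers, and 1 was lower in db livers. The part of cell composition in the members' ratios was not tested.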

How the data were processed

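Livers of 4 groups, 3 each by the labels, were sequenced as ribosome-depleted total RNA. Per the labels and methods, the authors removed adapters, filtered ribosomal reads with Bowtie2 2.2.9, aligned to GRCm38 with STAR 2.6.0c and assembled and compared transcripts with Cufflinks 2.2.1 and Cuffdiff. The deposited FPKM values are 1 per group, pooled by the authors, and depth per liver is unknown. The GC percent, transcript length and biotype columns were joined by the authors from Ensembl. Columns with the authors' fold change, test statistic, p and q were not used, apart from the test status that defines a member.

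Ratios were formed within each table (Python 3.11.15, pandas 2.3.3) where the mean was at least 0.5 FPKM and both values were above 0, and log2 ratios beyond 30 were set aside. With no values per liver, a 2-fold rule replaced a test. Positions (any overlap) and sequences come from GENCODE M21, and parents were aligned with Biopython 1.88. The calculations were tested on simulated data. Named were the 10 most abundant, 10 highest and 10 lowest ratios per table, those past 2-fold in both and the 10 most abundant with a tested parent, 1 transcript per gene. Members, lists and rules were chosen with earlier results of these data known. Alternatives were the pseudocount, the minimum level, centring, summing transcripts per gene and leaving out members by position or shared sequence.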

Additional observations from a re-analysis of the deposited data

Results flagged for a closer look

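Gm11400 stood out because its pooled values moved past 2-fold in opposite directions in the 2 models. The log2 ratio was 1.11 for HFD over CD and -2.49 for db over misty. With 1 pooled value per group the difference between the models was not tested.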

How the results depend on the processing

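No paired analysis was possible because the tables hold 1 pooled value per group, and for the same reason no liver could be left out. Against the main counts of 11 higher and 22 lower members in HFD livers and 28 higher and 22 lower in db livers, a pseudocount of 1 FPKM gave 6 and 6 in HFD livers and 13 and 6 in db livers, since it shrinks the ratios of low members. With no minimum the counts were 37 and 52 in HFD livers and 53 and 50 in db livers, and with a mean of at least 1 FPKM 13 were lower in HFD livers and 18 were higher and 13 lower in db livers, as other numbers of members enter. At that minimum the median log2 ratio in db livers was 0.015, against -0.07. Chosen after the data were seen, leaving out members whose quantified interval also holds a protein-coding transcript gave 4 and 8 in HFD livers and 18 and 13 in db livers, with a median log2 ratio of 0.034 in db livers. Leaving out members that share a window with a coding transcript gave 13 lower in HFD livers and 12 higher and 13 lower in db livers. Leaving out members on the opposite strand of a coding gene gave 7 higher in HFD livers and a median of 0.034 in db livers. Why the median in db livers changed sign was not tested. Other alternatives, including centring, a pseudocount of 0.1 FPKM and sums per gene, kept counts within 1.5 times and medians within 0.1. No member shared an assembled locus with a coding transcript. Depth per liver is unknown, so counting error at levels near 0.5 FPKM cannot be given.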
